A study of Mus musculus with 6 samples.

Results

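Translation initiation factors (eIFs) and elongation factors (eEFs) are the proteins that load a ribosome on an mRNA, find its start codon and move the ribosome along. Their genes were examined in the marrow progenitor cultures of a study of Ift140, a subunit of the complex for retrograde intraflagellar transport in the primary cilium. The members are the autosomal protein-coding genes whose symbol begins with Eif or Eef followed by a digit, without the eIF2 kinases Eif2ak1, Eif2ak2, Eif2ak3 and Eif2ak4. They number 60 of the 23622 genes in the deposited table, and 59 had a mean of at least 0.5 FPKM and entered the fit. The family was picked because Eif genes were lower in the deletion group in an earlier look at these libraries. The control and deletion values of its members therefore describe that choice, and no p-value of a member is given. Counts of members past a threshold describe the fits and test no member.

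The samples were untreated bone progenitors cultured to generation 3 from marrow, taken from C57BL/6 mice 2 weeks of age. The labels name 3 wild-type cultures (ctrl, called control) and 3 Ift140-/- cultures (cko, called cKO), numbered 2, 3 and 4 in each group. Both groups share the strain, the age and the culture conditions. The sources used here do not say how the deletion was driven, which cells carried it, or which mice gave each culture. Ift140 was at 2.97 ± 0.194 FPKM in the controls and 1.79 ± 0.0951 FPKM in cKO (SD, n = 3), so 60.2% of its level remained (limma adjusted p = 0.0138).

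Translation begins when eIF1, eIF1A, eIF3 and eIF5 prepare the small ribosomal subunit, and the GTP-bound eIF2 brings the initiator tRNA. The exchange factor eIF2B recharges eIF2, and phosphorylated eIF2 blocks eIF2B. The cap-binding protein eIF4E, the scaffold eIF4G and the helicase eIF4A recruit the mRNA, while 4E-BP proteins sequester eIF4E when mTORC1 is off. Elongation then runs on eEF1A, which delivers aminoacyl-tRNA, its exchange factor eEF1B, and the translocase eEF2. In bone-forming cells this machinery serves a high rate of collagen synthesis.

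The DNA just before 5 of these genes is printed to show what letters stand next to their starts. They are the members with the lowest fold change (Eif2s2) and the highest above 1 FPKM (Eif4ebp2), both in the fit reported, on the log2(FPKM + 1) scale. The others are the paralogs Eif4a1 and Eif4a2, and Eif1. All 5 are members. They were picked after their values were seen, and other members with a RefSeq window are not printed. The stretches lie within 250 bases before a RefSeq transcription start (GRCm38.p6), read in the direction of the gene, and stop where a GENCODE vM21 exon begins. Eif1 (chr11:100319699-100319884, plus strand), Eif2s2 (chr2:154892936-154893156, minus strand) and Eif4a1 (chr11:69672424-69672673, minus strand) had lower levels in cKO. Eif4a2 (chr16:23107218-23107443, plus strand) is the paralog of Eif4a1, and Eif4ebp2 (chr10:61452670-61452919, minus strand) had a higher level. Capitals mark 5 motifs searched on both strands, none of which contains another. The ETS core, bound by ETS factors, was searched as CCGGAAG. The E-box of MYC and its relatives was searched as CACGTG. The CRE core, bound by CREB and ATF factors, was searched as TGACGT. The GC box of SP factors was searched as GGGCGG. The TATA box was searched as TATAAA.
Eif1: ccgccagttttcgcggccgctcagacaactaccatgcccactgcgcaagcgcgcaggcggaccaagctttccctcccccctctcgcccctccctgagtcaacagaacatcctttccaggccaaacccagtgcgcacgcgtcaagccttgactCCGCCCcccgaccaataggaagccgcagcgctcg
Eif2s2: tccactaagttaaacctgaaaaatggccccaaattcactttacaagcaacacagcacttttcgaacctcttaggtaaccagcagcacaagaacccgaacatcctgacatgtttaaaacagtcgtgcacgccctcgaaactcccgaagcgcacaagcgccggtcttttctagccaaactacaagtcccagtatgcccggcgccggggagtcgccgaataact
Eif4a1: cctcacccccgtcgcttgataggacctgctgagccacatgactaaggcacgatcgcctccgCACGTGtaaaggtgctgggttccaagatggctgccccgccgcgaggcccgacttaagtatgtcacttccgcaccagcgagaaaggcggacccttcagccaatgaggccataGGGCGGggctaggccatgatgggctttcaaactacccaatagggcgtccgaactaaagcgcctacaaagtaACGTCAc
Eif4a2: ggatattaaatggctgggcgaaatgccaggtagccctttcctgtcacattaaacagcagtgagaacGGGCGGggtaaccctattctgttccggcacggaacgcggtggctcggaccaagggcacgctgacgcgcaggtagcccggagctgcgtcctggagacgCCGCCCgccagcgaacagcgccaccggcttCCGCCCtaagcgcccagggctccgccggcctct
Eif4ebp2: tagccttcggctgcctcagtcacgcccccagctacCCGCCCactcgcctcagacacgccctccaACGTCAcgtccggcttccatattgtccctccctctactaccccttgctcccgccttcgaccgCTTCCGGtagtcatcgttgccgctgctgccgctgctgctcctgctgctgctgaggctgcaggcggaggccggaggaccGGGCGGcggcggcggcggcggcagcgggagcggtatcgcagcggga
Eif4a1 held an E-box, a GC box and the CRE core. Eif4a2 held GC boxes only, as did Eif1 with a lone copy. Eif4ebp2 held the ETS core, the CRE core and GC boxes, and none of the 5 motifs stood in the stretch of Eif2s2. Of the 60 members 44 had a RefSeq window, and in 28 of these the window holds some GENCODE exon bases. In the full windows of 250 bases the E-box stood in 9 of 44 (20.5%), against 8.6% of 9573 windows of tested genes and 6.0% of all 27025. The 9 were Eef2, Eef2k, Eif1b, Eif3f, Eif3k, Eif4a1, Eif4g1, Eif4h and Eif5a2. The ETS core stood in 20.5% of the members and 14.4% of tested genes, the CRE core in 13.6% and 10.3%, the GC box in 70.5% and 61.0%, and the TATA box in 9.1% and 6.0%. Members with an E-box had a median log2 fold change of -0.10 and those without -0.13. These are matches of letters, not sites of binding.

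Library totals behind the FPKM were 17180101 to 28283414, the highest being cKO 4. The groups also separated by sex markers. Xist, which silences an X chromosome in female cells, was at 0.0443 to 0.119 FPKM in the controls and 36.7 to 40.3 FPKM in cKO. The genotype comparison and this difference cannot be told apart. Of the 9 osteoblast and stromal markers, all but Bglap were above 1 FPKM in each library, and Bglap (osteocalcin) was at 0.321, 0.90 and 1.32 FPKM in the controls and 2.45, 2.78 and 3.95 in cKO. Their summed level was 4252 to 4607 FPKM in the controls and 3344 to 4707 in cKO, most of it Col1a1. The 5 macrophage markers summed to 1608 to 1731 and 1747 to 2449 FPKM, and the 5 granulocyte markers to 2.36 to 26.7 and 59.9 to 178 FPKM. The granulocyte sum is nearly all S100a8 and S100a9, while the defining markers Mpo, Elane and Ly6g stayed below 1 FPKM in each library. Endothelial markers summed to 18.3 to 23.6 and 13 to 15.1 FPKM, osteoclast markers to 70.5 to 121 and 75.1 to 88.4 FPKM, lymphocyte markers to 0.675 to 0.917 and 1.2 to 1.84 FPKM and the 2 listed erythroid markers to at most 0.342 FPKM. The part of cell makeup in the results on the factor genes was not tested, and in such bulk libraries fewer cells of a type and less RNA per cell cannot be told apart.

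As a family the factor genes stood lower in cKO by a small amount. Their FPKM summed to 5336, 5447 and 5142 in controls 2, 3 and 4 and to 4626, 4695 and 4791 in cKO 2, 3 and 4, so the groups did not overlap. This was 1.80% ± 0.0504 of all FPKM in the controls and 1.58% ± 0.0277 in cKO (SD, n = 3). Eef1a1 and Eef2 alone made up 47.8% ± 1.54 and 47.3% ± 0.423 of the family's sum. Without them the sum was still 2691 to 2881 FPKM in the controls and 2455 to 2528 in cKO. The median member stood at 91.5% of its control level, a log2 fold change of -0.12 on the log2(FPKM + 1) scale used throughout, against -0.00 for all 13326 tested genes. Of 59 members 47 were lower and 12 higher, while the tested genes were divided into 6698 lower and 6628 higher.

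Single members differed in whether their groups overlapped. The 3 control and 3 cKO values did not overlap in 34 of 59 members, 27 lower and 7 higher. Among all tested genes 35.7% did not overlap, 17.8% lower and 17.9% higher. The members were chosen on this contrast, so nothing is read from these shares. Among the 9 members known as TOP mRNAs, whose terminal oligopyrimidine start puts them under mTORC1 and LARP1 (Eef1a1, Eef1b2, Eef1d, Eef1g, Eef2, Eif3e, Eif3f, Eif3h and Eif4b), all 9 were lower with a median log2 fold change of -0.15, and the other 50 had a median of -0.12. These are values of the contrast that chose the family too.

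**Figure D1:**
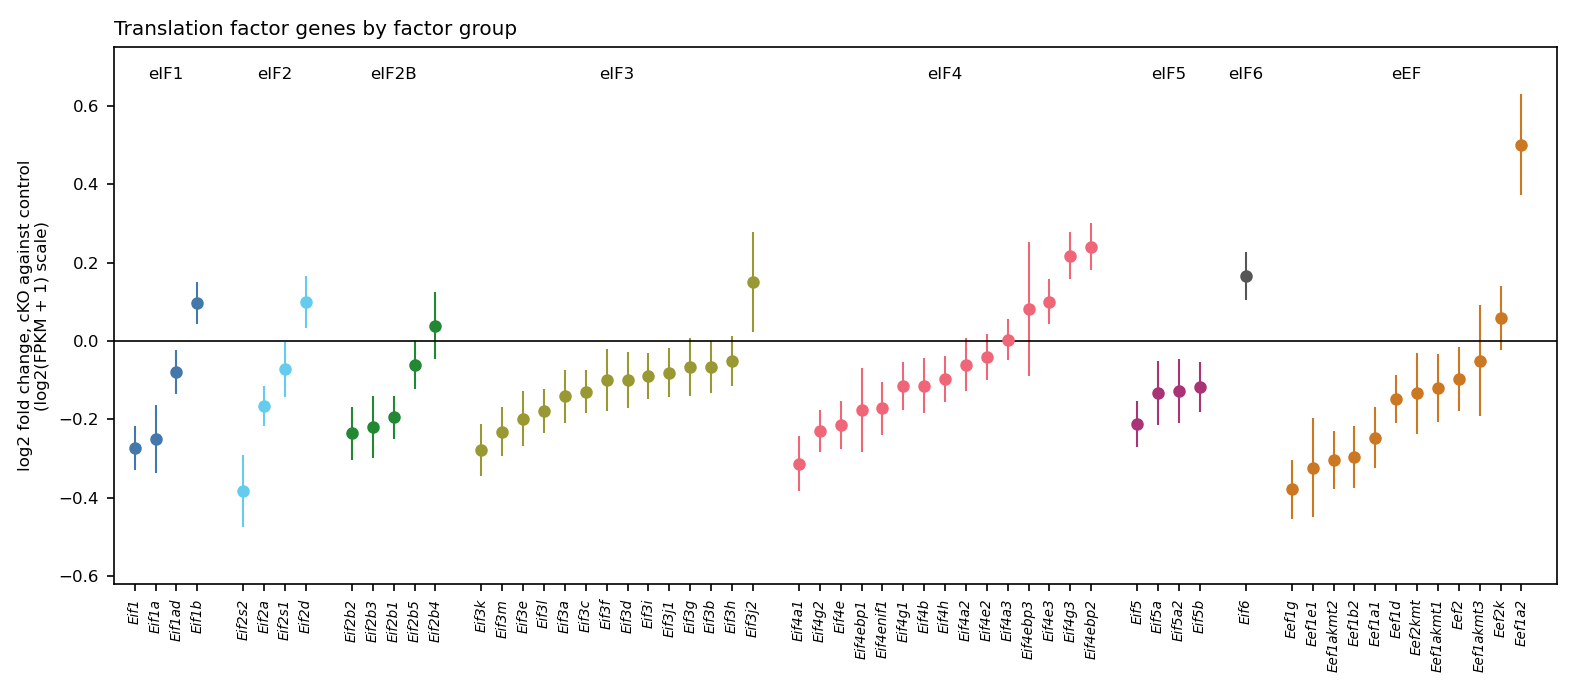
Log2 fold change (cKO against control, log2(FPKM + 1) scale, vertical axis) of the 59 tested factor genes, arranged by factor group and within it by size. Points are estimates, and lines 1 standard error to each side, as a description of members chosen on this contrast. 47 points lie below 0, and the point farthest above it is Eef1a2, which had 4 to 56 reads per library.

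The factors that scan for the start codon differed within a paralog pair. Eif1 (ENSMUSG00000035530, chromosome 11 from 100319885 to 100322096, plus strand, GRCm38) encodes eIF1, which guards the accuracy of start codon choice. It was at 116, 117 and 121 FPKM in the controls 2, 3 and 4 and at 99.7, 93.4 and 99.2 FPKM in cKO 2, 3 and 4. Every cKO culture was below every control, with means of 118 ± 2.8 and 97.4 ± 3.5 (SD, n = 3) and a log2 fold change of -0.27 (SE 0.06). Its close relative Eif1b had 27.0, 28.2 and 28.5 FPKM in the controls and 30.7, 30.0 and 28.9 in cKO, a difference the other way of 0.10 (SE 0.05). The ratio of Eif1 to Eif1b was thus 4.15 to 4.28 in controls and 3.11 to 3.43 in cKO, with no overlap. Eif1a encodes eIF1A, the partner of eIF1 on the small subunit, and stood at 46.8, 57.7 and 55.7 FPKM in the controls and 45.1, 45.9 and 42.8 in cKO. Its cKO values were all below the controls, but control 2 was close to them. Its X-linked counterpart Eif1ax was at 14.0 ± 1.32 and 12.4 ± 0.941 FPKM (limma adjusted p = 0.290). These copies are near-identical, so reads could be divided between them. Eif1ad, named for its eIF1A domain, was at 11.3 ± 0.379 and 10.7 ± 0.398 FPKM, and Banf1 shares exon bases with it on the other strand.

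Of the 3 subunits of eIF2, beta was lower in cKO and alpha differed little, while the X and Y copies of gamma went opposite ways. Eif2s2 (beta, chromosome 2 from 154871410 to 154892935, minus strand) had the lowest fold change of all members in the fit reported, just below Eef1g. After the GC correction Eif2s2 was at -0.310, behind Eef1g at -0.393 and Eif2b2 at -0.317. Controls 2, 3 and 4 had 20.6, 26.3 and 23.1 FPKM and cKO 2, 3 and 4 had 17.2, 18.3 and 17.2, so 75.4% remained with no overlap (log2 fold change -0.38, SE 0.09). The controls spread more than the cKO cultures, with SDs of 2.85 and 0.633 FPKM. Eif2s1, the alpha subunit that the eIF2 kinases phosphorylate, was the most abundant of the group, at 21.5, 25 and 23.8 FPKM in the controls and 23.1, 22.2 and 21.4 in cKO. Its groups overlapped, and the ratio of Eif2s1 to Eif2s2 went from 0.953 to 1.05 in controls to 1.22 to 1.34 in cKO. The gamma subunit lies on both sex chromosomes in mice and is no member. Eif2s3x was at 17.3, 20.2 and 19.7 FPKM in the controls and 28.0, 28.7 and 28.1 in cKO (limma adjusted p = 0.0120). Eif2s3y was at 11.6, 13.7 and 15.1 FPKM in the controls and had 0 reads in each cKO library. Both copies together were at 29.0, 33.9 and 34.8 FPKM in the controls and 28.0, 28.7 and 28.1 in cKO, so their sum was lower in cKO and each copy went with the sex pattern. Eif2a and Eif2d are separate proteins that can deliver initiator tRNA without the eIF2 trimer. Eif2a was at 6.62 ± 0.0809 and 5.79 ± 0.0735 FPKM and shares exon bases with Serp1, and Eif2d was at 4.04 ± 0.0737 and 4.41 ± 0.329.

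The 5 eIF2B subunits differed among themselves, 4 being lower and 1, Eif2b4, higher (Eif2b4 was lower, at -0.09, after the GC correction). Eif2b2 (beta) was the most abundant, at 34.1, 37.0 and 32.5 FPKM in the controls and 28.0, 28.9 and 30.5 in cKO, without overlap. Eif2b1 (alpha, 86.4% of control) and Eif2b3 (gamma, 81.0%) also showed no overlap between the groups. In contrast the groups overlapped for Eif2b5, the catalytic epsilon subunit, at 20.6 ± 0.935 and 19.8 ± 0.909 FPKM. They overlapped as well for Eif2b4 (delta), at 10.3 ± 0.601 and 10.6 ± 1.16 FPKM, which shares exon bases with Snx17. The control levels of the 5 subunits spanned 11.6-fold per length, from Eif2b3 at 2.97 ± 0.293 FPKM to Eif2b2 at 34.5 ± 2.29.

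The eIF3 complex, the large scaffold on the small ribosomal subunit, was slightly lower across its subunits. The 12 core subunits (a to i and k to m) were all lower, at 81.9% to 96.5% of control, with a median log2 fold change of -0.11, and 6 of them showed no overlap. Among all tested genes 17.8% were lower without overlap. The members were chosen on this contrast, so nothing is read from that count. Summed over the 14 eIF3 genes, the level was 835, 837 and 822 FPKM in the controls and 762, 764 and 764 in cKO. In the fit reported the distance in log2 fold change from Eif3k to Eif3h was the widest within the core. The order changed after the GC correction, with Eif3i at -0.047 and Eif3h at -0.053. Eif3b and Eif3g were then at -0.169 and -0.168, and Eif3a at -0.077. Eif3k, a peripheral subunit, was at 35.9, 33.9 and 31.2 FPKM in the controls and 27.1, 28.3 and 27.3 in cKO. Eif3h, which joins the same octamer of subunits, was the most abundant at 149, 141 and 134 FPKM in the controls and 136, 142 and 132 in cKO, and its groups overlapped. Eif3m (84.7% of control), Eif3e (87.2%), Eif3l (88.1%), Eif3a (90.5%) and Eif3c (91.4%) showed no overlap. Eif3d, Eif3f, Eif3i, Eif3g and Eif3b were at 92.9% to 95.6% with overlap. Core subunit levels in controls spanned 6.12-fold, from 23.1 FPKM for Eif3i to 142 for Eif3h. The loosely bound eIF3j was at 7.34 ± 0.402 and 6.88 ± 0.292 FPKM for Eif3j1, while its copy Eif3j2 had 34 to 56 reads per library (0.884 ± 0.157 and 1.1 ± 0.286 FPKM). The pair are near-identical, and how reads were divided between them is not known.

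**Figure D2:**
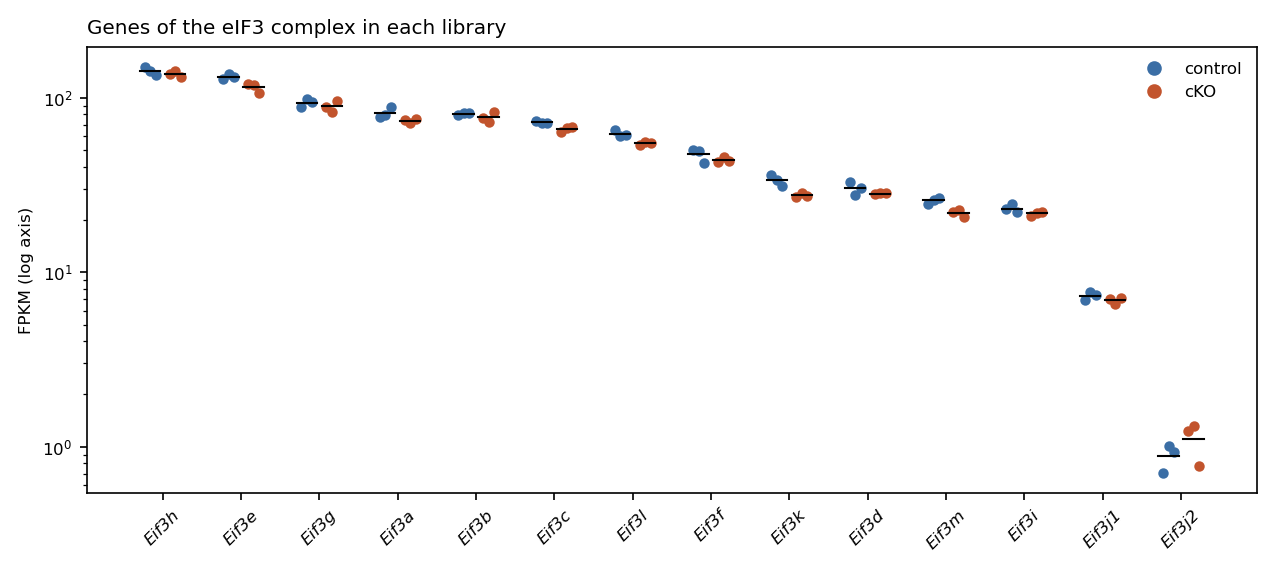
FPKM of the 14 eIF3 genes (vertical axis, log scale) in each library, ordered by mean level. Points are libraries, 3 control and 3 cKO per gene, and bars are group means. The 12 core subunits lie between 20.6 and 149 FPKM, with each cKO mean below the control mean, and only Eif3j2 stands higher.

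In the eIF4 group, which recruits mRNA by its cap, paralogs differed in direction, with 10 of 15 tested genes lower and 5 higher. Eif4a1 (ENSMUSG00000059796, chromosome 11 from 69666936 to 69672423, minus strand) encodes the main helicase of this step. It was at 143, 157 and 145 FPKM in the controls 2, 3 and 4 and at 117, 114 and 127 in cKO 2, 3 and 4 (means 148.5 ± 7.42 and 119 ± 7.0, SD, n = 3). The groups did not overlap (log2 fold change -0.31, SE 0.07). Eif4a2, its paralog, was at 40.8, 46.6 and 46.1 FPKM in the controls and 43.4, 42.7 and 41.6 in cKO, which overlapped. Eif4a3, the helicase of the exon junction complex on spliced mRNA, was at 52.1 ± 0.986 and 52.2 ± 1.51 FPKM. The pseudogene Eif4a-ps4 was listed at 16.9 to 31.1 FPKM in the same libraries, so reads of Eif4a copies can be misplaced. After a correction for GC content the log2 fold change of Eif4a1 was -0.26.

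The eIF4G scaffolds went in opposite directions. Eif4g1 was at 105, 107 and 110.3 FPKM in the controls and 98.0, 94.9 and 105 in cKO, with the highest cKO value at the lowest control. Eif4g2 (DAP5), which lacks the eIF4E site, was at 89.3, 92.9 and 92.0 FPKM in the controls and 79.7, 78.4 and 75.6 in cKO, a clear gap (log2 fold change -0.23, SE 0.05). Eif4g3 (chromosome 4 from 137993022 to 138208508, plus strand), another full-length scaffold, was at 17.1, 16 and 16.8 FPKM in the controls and 18.6, 19.5 and 20.4 in cKO (log2 fold change 0.22, SE 0.06). Hence the ratio of Eif4g1 to Eif4g3 was 6.14 to 6.71 in controls and 4.87 to 5.28 in cKO, and that of Eif4g2 to Eif4g3 was 5.24 to 5.82 and 3.70 to 4.29.

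The cap-binding proteins differed from each other too. Eif4e, the factor that binds the cap for initiation, was at 11.6, 11 and 11.5 FPKM in the controls and 10.0, 9.87 and 9.04 in cKO, without overlap (log2 fold change -0.21, SE 0.06). Eif4e2 (4EHP), which represses bound mRNAs, had a higher FPKM than Eif4e and overlapped between groups, at 13.1 ± 0.710 and 12.7 ± 0.150 FPKM. Eif4e3 stood at 6.33, 6.56 and 6.45 FPKM in the controls and 6.94, 6.66 and 7.37 in cKO. Each cKO value was above each control value, though by little (log2 fold change 0.10, SE 0.06). Eif4e1b, the oocyte form, had 0 to 2 reads per library and was not tested.

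The 4E-BP repressors also diverged. Eif4ebp1, the most abundant of the eIF4 group, was at 177, 219.9 and 186 FPKM in the controls and 159, 165 and 190.3 in cKO, so the groups overlapped and both varied widely. Eif4ebp2 (chromosome 10 from 61428491 to 61452661, minus strand) was at 34.8, 31.4 and 32.8 FPKM in the controls and 40.4, 38.9 and 38 in cKO. This was the highest fold change of any member above 1 FPKM on the log2(FPKM + 1) scale (log2 fold change 0.24, SE 0.06). No cKO culture fell into the control range. With a pseudocount of 0.1 Eif4ebp2 was at 0.25, below the scarce Eif3j2 at 0.27. Eif4ebp3 had 4 to 13 reads per library, too few to compare. The summed level of Eif4ebp1 and Eif4ebp2 relative to Eif4e was 20.1 ± 2.50 in controls and 22.0 ± 2.89 in cKO, a difference within the spread.

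The helpers of the cap complex were at or below control. Eif4b, a cofactor of eIF4A, was at 79.9, 69.5 and 76.0 FPKM in the controls and 66.5, 70.3 and 71.0 in cKO. Eif4h, another cofactor of the helicase, was at 55.2, 59.1 and 57.0 FPKM and 51.0, 53.5 and 55.3 FPKM. Both overlapped between groups. Eif4enif1 (4E-T), which shuttles eIF4E and brings it to repressed mRNAs, was at 8.51, 7.45 and 8.20 FPKM in the controls and 6.64, 7.15 and 7.30 in cKO, without overlap.

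**Figure D3:**
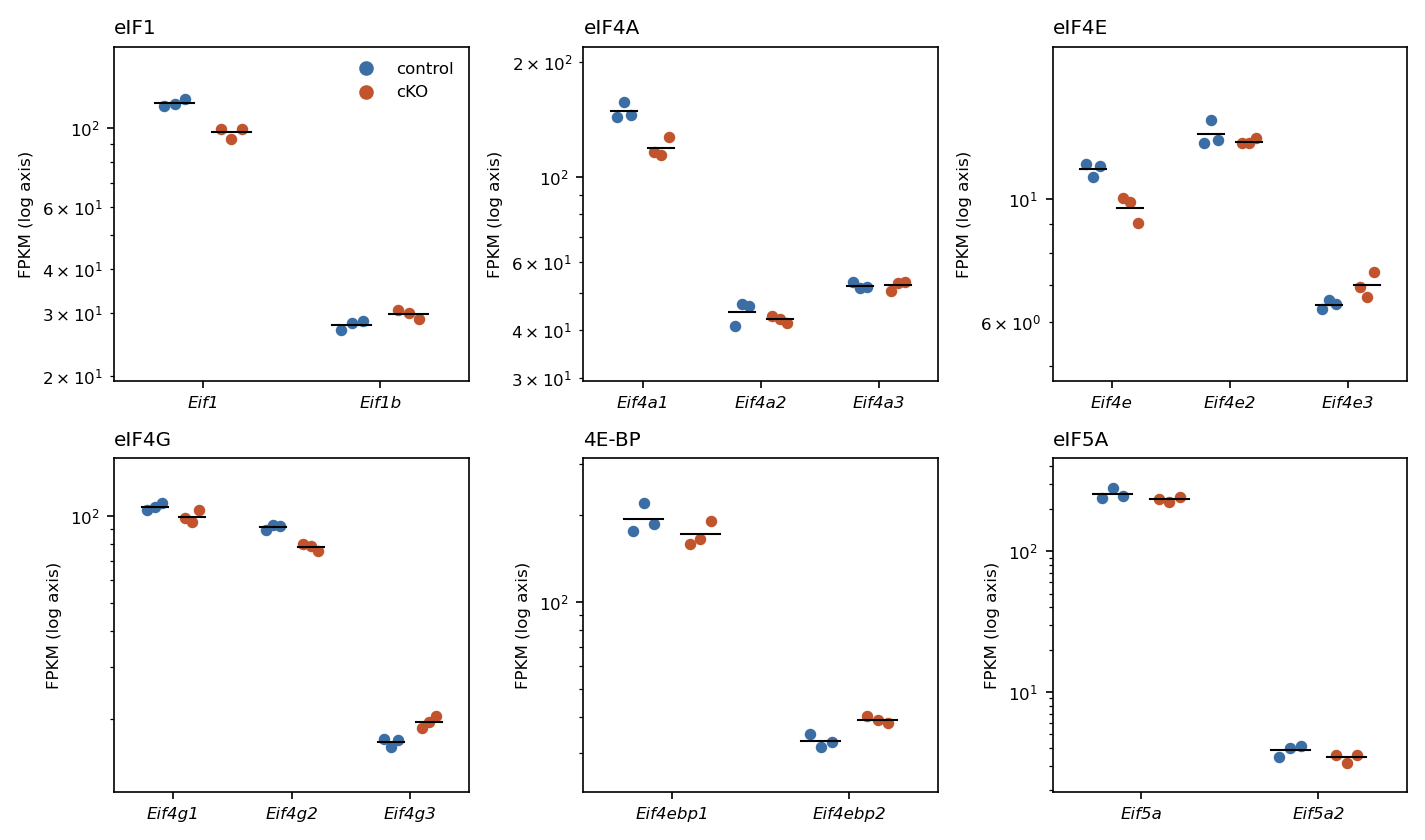
FPKM of paralog sets (vertical axes, log scale, each panel with its own range) in each library. Points are libraries, 3 control and 3 cKO per gene, and bars are group means. Eif1, Eif4a1, Eif4g1, Eif4g2 and Eif4e lie lower in cKO, while Eif1b, Eif4g3, Eif4e3 and Eif4ebp2 lie higher.

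The genes of the eIF5 and eIF6 groups had modest differences. Eif5, which triggers GTP hydrolysis by eIF2, was at 45, 45.2 and 49.3 FPKM in the controls and 38.9, 40.4 and 40.7 in cKO, without overlap (log2 fold change -0.21, SE 0.06). Eif5b, the GTPase of subunit joining, was at 12.1 ± 0.70 and 11 ± 0.518 FPKM. Eif5a (eIF5A), which carries the modified residue hypusine and eases difficult peptide bonds, was the most abundant of the group at 239.9, 282 and 247 FPKM in the controls and 235, 224 and 241 in cKO. Its groups overlapped, as did those of its scarce paralog Eif5a2 at 3.85 ± 0.372 and 3.44 ± 0.244 FPKM. The ratio of Eif5a to Eif5a2 was 66.8 ± 6.30 in controls and 68.1 ± 2.65 in cKO. Eif6 (chromosome 2 from 155819832 to 155826925, minus strand) keeps the large subunit from joining too early. It was at 42.9, 43.4 and 43.5 FPKM in the controls and 47.0, 46.9 and 52.3 in cKO, a log2 fold change of 0.17 (SE 0.06) opposite in direction to most initiation factors, but -0.00 after the GC correction.

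Among the elongation factors the eEF1 complex was lower as a whole and eEF2 was less so in the fit reported. This order did not hold for every subunit after the GC correction. Eef1g (ENSMUSG00000071644, chromosome 19 from 8967041 to 8978479, plus strand) encodes the gamma subunit that anchors the exchange complex. Its controls were at 194, 227.5 and 199 FPKM and its cKO cultures at 158, 159 and 158, so 76.6% remained (207 ± 18.2 to 158 ± 0.905, SD, n = 3). The log2 fold change was -0.38 (SE 0.08), and the cKO cultures differed from each other by far less than the controls. Eef1b2 (beta) was at 92.8 ± 8.52 and 75.2 ± 3.10 FPKM and Eef1d (delta) at 16.4 ± 0.423 and 14.7 ± 0.851, both without overlap. Ndufs1 and Naprt, respectively, share exon bases with them.

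Eef1a1, which carries aminoacyl-tRNA to the ribosome, had the highest level of all members. It stood at 1648, 1670 and 1499 FPKM in the controls and 1341, 1376 and 1340 in cKO, a log2 fold change of -0.25 (SE 0.08) with no overlap. Its muscle and neuron paralog Eef1a2 had 13, 19 and 4 reads in controls and 24, 29 and 56 in cKO. That is 0.310, 0.422 and 0.0924 against 0.670, 0.771 and 0.95 FPKM, so the groups did not overlap but rested on few reads. The translocase Eef2 was at 997, 895 and 904 FPKM in the controls and 826, 864 and 923 in cKO, which overlapped (log2 fold change -0.10). After the GC correction Eef2 was at -0.24, against -0.20 for Eef1a1 and -0.11 for Eef1d. Eef1b2 and Eef1g were then at -0.24 and -0.39. After quantile normalization Eef2 was at -0.01 and Eef1a1 at -0.12. Eef2k, the kinase that shuts eEF2 off, was at 7.75, 7.69 and 7.52 FPKM and 7.92, 7.18 and 9.02 FPKM, also with overlap.

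The other elongation members were scarcer. Eef1e1 (chromosome 13 from 38644207 to 38659058, minus strand), a scaffold of the multi-tRNA synthetase complex, was at 18.0, 25.2 and 18.9 FPKM in the controls and 16.9, 16.4 and 15.3 in cKO. Control 3 stood apart from the other 2 controls, and the log2 fold change was -0.32 (SE 0.13) with it and -0.18 without it. The methyltransferases that modify eEF1A and eEF2 did not all follow. Eef1akmt2 was at 4.96 ± 0.398 and 3.83 ± 0.236 FPKM without overlap, while Eef1akmt1, Eef1akmt3 and Eef2kmt overlapped at 89.1% to 92.1% of control.

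The members shared a few traits that did not enter their choice. They were abundant, with a median of 28.9 FPKM against 6.03 for all tested genes, and varied little between replicates. Their median coefficient of variation was 5.48% in controls and 4.37% in cKO, against 9.10% and 7.68% over all tested genes. Genes of like level were not compared, so the part of abundance in this low variation was not tested. Within the groups, control 3 was the highest control in 31 of 59 members and control 2 the lowest in 35, while cKO 4 was the highest cKO culture in 31. Over all tested genes those shares were 38.6%, 34.7% and 38.9%. Exon bases shared with another gene occurred in 25 members, in 12 of them with a gene at 1 FPKM or more.

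Fold change went with GC content among the members and among genes in general. Across the 59 members the Spearman correlation of the log2 fold change with the GC content of the longest transcript was 0.43, and over 13293 tested genes it was 0.38. These points come from the same 6 libraries and are no independent replicates. Members under the family's median GC content of 49.8% had a median log2 fold change of -0.18 and those at or above it -0.07. For all tested genes divided at the same value the medians were -0.06 and 0.08. The 12 members with a higher level had a median GC content of 52.9% and the 47 lower ones 49.3%. After a loess correction of each library for GC content 49 of 59 members were lower, with a median of -0.11, and the split of all calls changed from 66.3% higher to 52.5%. What part GC content had in single members was not tested.

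**Figure D4:**
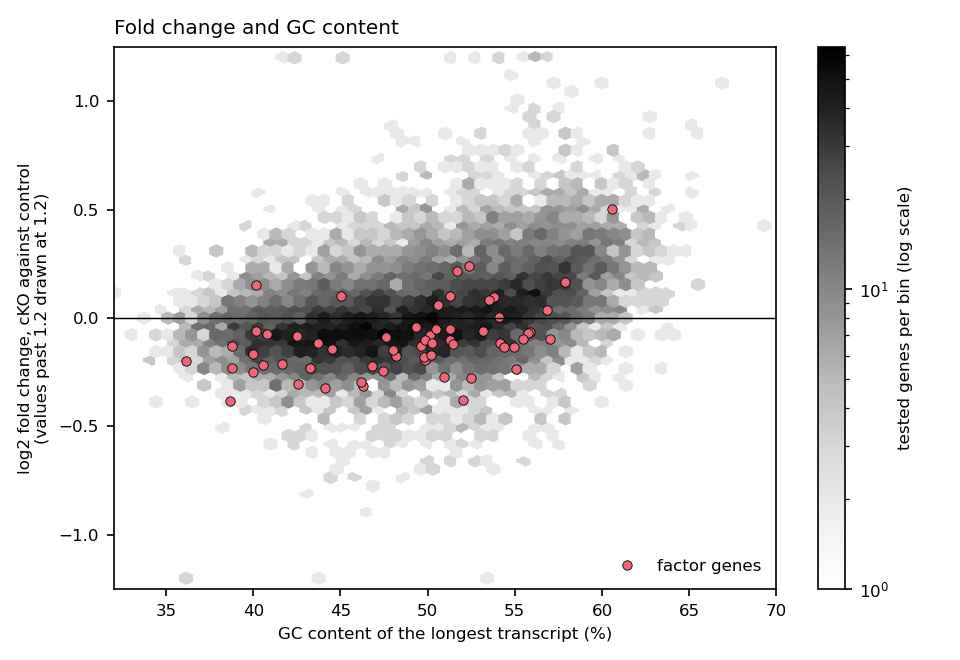
Log2 fold change (cKO against control, log2(FPKM + 1) scale, vertical axis) against the GC content of the longest transcript (horizontal axis, percent). Grey bins count tested genes on a log scale and points are the 59 factor genes. Among the points, 47 lie below 0, and the members of lower GC content lie lower (medians -0.18 and -0.07 below and above 49.8%).

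Genes that work beside these factors were described by lists, with limma's moderated test over all tested genes and a Benjamini-Hochberg adjusted p under 0.05 as the threshold. Across all tested genes 7.61% passed, 2.57% lower and 5.04% higher. Of all 13326 tested genes 3841 had an unadjusted p under 0.05 by limma, and voom on recovered reads called 1493. The cytosolic tRNA synthetases and their scaffolds, which charge tRNA with amino acids, held the most calls: 10 of 22 fell and none rose by limma, with a median log2 fold change of -0.27 (16 had an unadjusted p under 0.05, and voom on recovered reads called 11). Without control 4 or without cKO 3 none of these calls was made. Gars, for glycine, fell from 73.2 ± 3.31 to 50.6 ± 3.28 FPKM with a log2 fold change of -0.53 (SE 0.07; limma adjusted p = 0.0126, and 0.0047 to 0.0684 in the 18 other fits). Nars, for asparagine, fell from 144 ± 6.72 to 105 ± 5.18 FPKM (adjusted p = 0.0158), Tars, for threonine, from 53.7 ± 5.57 to 39.4 ± 2.74 (0.0386) and Iars, for isoleucine, from 31.5 ± 0.602 to 23.8 ± 1.13 (0.0150). Sars, Lars, Cars, Eprs, Yars and Rars were the other synthetases that fell. In all 10 the groups did not overlap, while 17.8% of all tested genes were lower without overlap. The threshold favours such genes, so this adds no support to the calls. The 10 were called in 7 (Rars) to 14 (Gars) of the 18 other fits. Vars, for valine, was the exception in direction at 23.5 ± 1.48 and 29.1 ± 3.49 FPKM (adjusted p = 0.104). The list is not the multi-tRNA synthetase complex that Eef1e1 scaffolds. The companions of Eef1e1 in that complex, Aimp1 and Aimp2, were at 7.87 ± 0.623 and 6.98 ± 0.361, and 9.79 ± 0.807 and 7.76 ± 0.483 FPKM.

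Termination, modification and signalling genes gave scattered calls. In the list of termination and recycling genes Hbs1l, a ribosome rescue GTPase, fell from 10.6 ± 0.176 to 8.78 ± 0.0661 FPKM (limma adjusted p = 0.0346), and 1 of 9 passed. The release factor gene Etf1 was at 36.5 ± 1.83 and 31.4 ± 1.74 FPKM (0.0970) and its partner Gspt1 at 33.4 ± 1.5 and 38.1 ± 0.693 (0.0933). Dohh, the hydroxylase that completes hypusine on eIF5A, rose from 20.4 ± 1.01 to 29.2 ± 2.37 FPKM (adjusted p = 0.0173), alone among the 13 modification and selenocysteine genes to pass. Dhps, the enzyme before it, was at 6.99 ± 0.423 and 6.89 ± 0.457 FPKM (0.882). In the list of mTORC1 and kinases 2 of 15 passed in opposite directions. Akt1s1 (PRAS40), an inhibitor within mTORC1, rose from 46.9 ± 3.32 to 62.7 ± 4.94 FPKM (0.0341) and Rps6ka2, an RSK kinase, fell from 6.35 ± 0.224 to 4.25 ± 0.610 (0.0294). In the 18 other fits Hbs1l was called in 10, Dohh in 13, Akt1s1 in 9 and Rps6ka2 in 11. Mtor itself was at 6.41 ± 0.490 and 6.45 ± 0.450 FPKM (0.948).

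No gene passed by limma in 3 lists. In these 10 of 16, 1 of 8 and 0 of 9 had an unadjusted p under 0.05, against 3841 of all 13326 tested genes. Voom on recovered reads called 3, 0 and 0, against 1493 of all tested genes. Of 16 cap, poly(A) and mRNA binding genes 13 were lower with a median log2 fold change of -0.13, and the nearest to the threshold were Larp1b, at 2.01 ± 0.146 and 3.13 ± 0.564 FPKM (adjusted p = 0.0606), and Larp1, the TOP mRNA binder, at 31.7 ± 0.507 and 26.6 ± 1.68 (0.0628). Of 8 eIF2 kinase and phosphatase genes the nearest were Impact, a brake on the kinase GCN2, at 20.7 ± 3.43 and 16.2 ± 1.28 FPKM (0.136), and Eif2ak4, GCN2 itself, at 4.0 ± 0.126 and 3.5 ± 0.254 (0.181). The 9 mitochondrial factors, which serve a separate ribosome, had a median of -0.03, with Mtrf1l at 2.02 ± 0.353 and 2.41 ± 0.225 FPKM (0.303) and Gfm1 at 8.11 ± 0.391 and 7.57 ± 0.264 (0.372). Cytosolic ribosomal protein genes, the other large set under TOP control, were lower in 69 of 76 with a median log2 fold change of -0.19, and 5 fell: Rps7, Rps23, Rps20, Rpl5 and Rpl7 (limma adjusted p = 0.0345 to 0.0437, named after their values were seen). Ribosomal protein genes have many pseudogene copies that can share their reads. Over the 7 related lists 12 of 92 genes fell and 2 rose, against 2.57% and 5.04% of all tested genes. No call among the 92 held without control 4 or without cKO 3, while 3 of the 92 passed without cKO 2, 8 without control 3, 8 without cKO 4 and 9 without control 2.

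**Figure D5:**
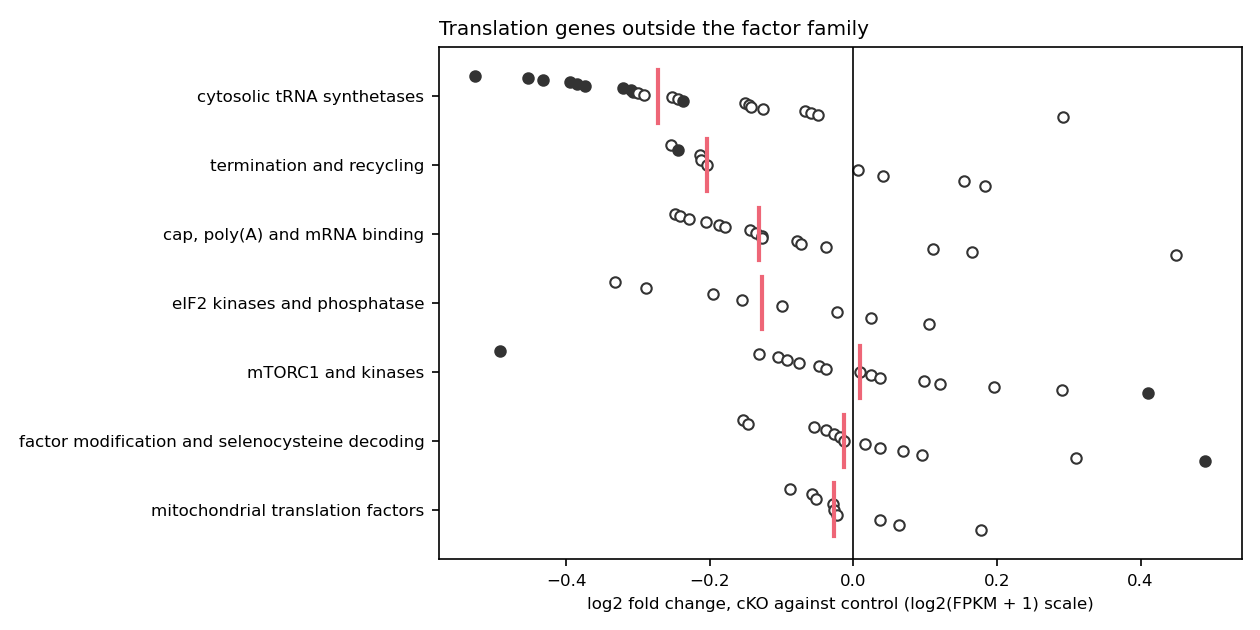
Log2 fold change (cKO against control, log2(FPKM + 1) scale, horizontal axis) of 92 related translation genes in 7 lists. Points are genes, filled where limma's adjusted p was under 0.05, and vertical bars are list medians. Filled points to the left of 0 are mostly the 10 tRNA synthetase genes.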

How the data were processed

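Poly-T purified mRNA of 6 cultures was sequenced from 3 µg of RNA each, per the labels' protocols, and the authors deposited a table of FPKM per gene and library. Per the submitters' processing notes the tools included HTSeq 0.6.0 and DESeq2 1.10.1, without saying for which step. The sources used here name no aligner, build, annotation or strand setting. The library totals behind the FPKM were 20158329, 21581625 and 20770169 in controls 2, 3 and 4 and 17180101, 18044678 and 28283414 in cKO 2, 3 and 4. They followed median-ratio size factors of the reads to within 0.230%, so deposited levels carry that scaling. Whole reads were recovered from the FPKM of 23427 genes with a value (tolerance 1e-06), 18210 of them with the exon-union length of GENCODE vM21. Reads of genes with a fitted length are known up to a factor, and precision from reads covers counting error only.

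GENCODE vM21 (GRCm38) gave symbols (for 99.5% of identifiers), coordinates and GC content, and RefSeq (GRCm38.p6) the promoter letters. Log2(FPKM + 1) of the 13326 genes averaging at least 0.5 FPKM was fitted with limma 3.58.1 (R 4.3.3, intensity trend, 2-sided, Benjamini-Hochberg, threshold 0.05, no covariate). The series' design text calls the replicates biological but does not tie them to mice. The p-values therefore set the group difference against the spread between these cultures, moderated over all tested genes. Tables and plots were made with Python 3.11.15, numpy 2.4.6, pandas 2.3.3, scipy 1.17.1 and matplotlib 3.10.9, and the fits were tested on simulated data.

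The members and all lists were chosen with earlier results of these data known, the related lists and TOP genes from general knowledge. Values in full were given for the most abundant member of each factor group, up to 4 members of each group past limma's threshold (a rule for naming, not a result), the 3 highest and 3 lowest fold changes at 1 FPKM or more, paralog sets and regulators, and in related lists for up to 4 called genes or the 2 nearest the threshold. Genes outside this rule (Eif1a, Eif3k, Eif5, Eef2, Vars, Aimp1, Aimp2, Etf1, Gspt1, Dhps and Mtor) were named after their values were seen. Alternatives were other scalings, pseudocounts, filters and variance priors, a replicate block, a GC correction (loess, span 0.5), voom on recovered reads, autosomal protein-coding genes and leaving out each library.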

Additional observations from a re-analysis of the deposited data

How the results depend on the processing

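The median log2 fold change of the factor genes was -0.093 to -0.156 in the 18 alternative fits and kept its sign in 18 of 18. This describes the fits only, since the family was chosen on this contrast. The replicate block, the fit without intensity trend and the autosomal gene set cannot move the median (-0.117 in each, as in the fit reported). The median was -0.156 after quantile normalization, which moved that of all genes to -0.034, and -0.101 to -0.141 when a library was left out. The factor genes were chosen on this contrast, so the number past limma's threshold describes each fit and tests no member. It was 3 of 59 in the fit reported, against 1014 of all 13326 genes, and 11 after quantile normalization, against 1169. A filter at a mean of 5 FPKM gave 7 of 50, against 1059 of 7292 genes. Voom on recovered reads called 8 of 59, against 1493 of 13326. Among autosomal protein-coding genes it was 9 of 59, against 1330 of 11351. With no filter it was 0 of 60, against 511 of 23427 (26 and 4440 at an unadjusted p under 0.05 by limma). Leaving out a library gave 0 to 3 factor genes called, 0 to 9 related genes and 71 to 1000 of all genes. At an unadjusted p under 0.05 by limma it gave 19 to 24 factor genes and 2721 to 3816 of all genes. With no filter on low values 7 related genes and 511 of all genes passed, more genes being tested. Of all calls 66.3% were higher, against 52.1% after quantile normalization and 52.5% after the GC correction. None of the called related genes changed sign in these fits, but where groups do not overlap, leaving out a library cannot change it. Eif2b4, Eif4a2, Eif4a3, Eif4e2, Eif4ebp3, Eif6, Eef1akmt3 and Eef2k changed sign in at least 1 fit. Low reads limit Eef1a2, Eif4ebp3, Eif3j2 and Eif4e1b.

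With the replicate block limma called 0 factor genes (22 at an unadjusted p under 0.05), 0 related genes (27) and 64 of all genes (3199). With the GC correction and the replicate block the counts were 0, 0 and 3, and 20 factor genes and 2878 of all genes had an unadjusted p under 0.05. The sources used here do not say whether the numbers pair the cultures. Over all tested genes the deviations of same-numbered samples correlated at -0.04, -0.05 and 0.03, and not every sample correlated best with its own number. With 3 libraries in each group, such correlations cannot settle whether cultures were paired, since a pairing could touch only some genes. The causes of these differences between fits were not tested.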
